A study of Mus musculus with 12 samples.

Results

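Epiblast stem cells (EpiSCs) were set against embryonic stem cells (ESCs) negative for an Esrrb reporter, using 6 of the 12 bead arrays of the series. The 3 EpiSC arrays held RNA of TNG Esrrb-2a-TdTomato EpiSCs, which the study describes as derived from late bud stage embryos. The line has GFP in 1 of its Nanog alleles and a red reporter at Esrrb. It was kept in activin and FGF in N2B27, a serum-free medium. The 3 EsrrbNeg arrays held RNA of E14Tg2a Esrrb-2a-GFPd-IBIH ESCs, maintained with serum and LIF, plated sparsely for 3 days and sorted as SSEA-1 positive cells without GFP signal. The arrays of EsrrbHi and EsrrbMed cells, sorted from the same cultures as bright or intermediate for GFP, entered the fit to estimate the chip effect. Each side of the comparison was therefore 1 engineered line. Line, embryo stage of origin, number of intact Nanog alleles, medium and cell state cannot be told apart. The sorted ESC arrays came from independent experiments by the study's description, whereas none of the sources used here says so of the EpiSC arrays, whose spread may be technical. The RNA is bulk RNA, in which fewer cells with a transcript and less RNA per cell cannot be told apart.

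ESCs represent the naive epiblast of the blastocyst, and EpiSCs represent the primed epiblast after implantation, which responds to activin and FGF and can enter gastrulation. Naive identity rests on transcription factors such as ESRRB, KLF4, TFCP2L1 and NANOG acting with OCT4 and SOX2, and is sustained by LIF through STAT3. ESRRB is an orphan nuclear receptor, and its loss in serum culture marks ESCs that are leaving the naive state. The comparison asks what an established primed line expresses that Esrrb-negative ESCs lack, and the reverse.

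Between 13333 and 15393 of 45281 probes per array stood above background at a detection value of at most 0.01. All EpiSC arrays lay on chip 2 with EsrrbNeg replicate 3, whereas EsrrbNeg replicates 1 and 2 lay on chip 1. Replicate arrays of 1 group correlated at 0.987 to 0.996 over all genes tested, and EpiSC arrays correlated with EsrrbNeg arrays at 0.940 to 0.972. EsrrbNeg replicate 3 stood somewhat apart, correlating at 0.990 and 0.987 with replicates 1 and 2, which correlated with each other at 0.994. Single values below are normalized log2 intensities as measured, in replicate order, and differences are EpiSC minus EsrrbNeg with the chip effect removed (log2 units ± SE, limma, Benjamini-Hochberg adjusted p over 11089 genes).

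A gene was called at an adjusted p of at most 0.05 and a change of at least 1.5-fold. In EpiSCs 1310 genes (11.8% of those tested) were higher and 969 (8.74%) were lower, 2279 in all (20.6%). Scaling each array to the median of all its probes, in place of quantiles, shifted the median of all genes by 0.18 and gave 385 higher and 125 lower genes. Scaling to the median of the probes detected on every array shifted it by -0.06 and gave 975 higher and 1002 lower genes, so the split between directions depends on the scaling. At an effect of at least 2-fold, 420 genes were higher and 286 lower. The median difference over all genes was -0.01.

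For most called genes EsrrbNeg replicate 3 lay on the EpiSC side of the other EsrrbNeg replicates. Its difference from the mean of replicates 1 and 2, less the same difference in EsrrbHi and EsrrbMed cells, was above 0 for 1187 of the 1310 genes higher in EpiSCs (median 0.29) and for 134 of the 969 genes lower in EpiSCs (median -0.20), against a median of 0.01 over all genes. Replicate 3 is also the EsrrbNeg array that shares a chip with the EpiSCs. Values without it or against it alone are therefore given beside some of the genes it touches. A gene given without these values may still be touched by it. Without replicate 3, 1631 genes were higher and 1254 lower.

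**Figure D1:**
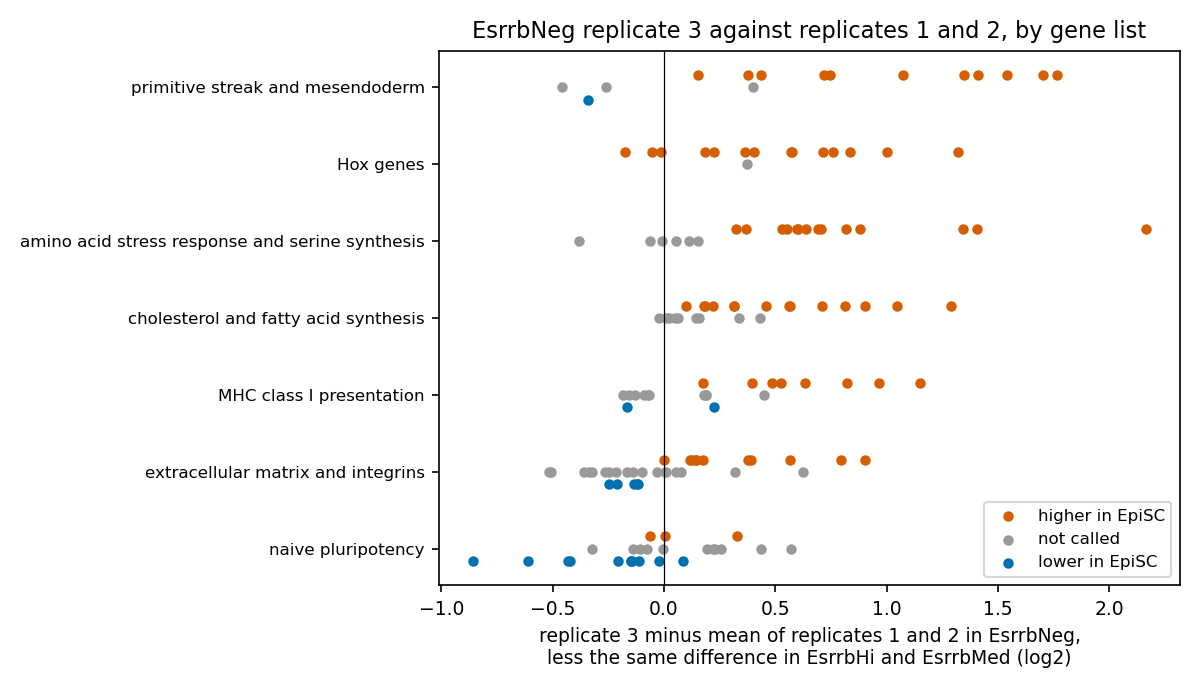
Log2 difference of EsrrbNeg replicate 3 from replicates 1 and 2, less the same difference in EsrrbHi and EsrrbMed, for the members of 7 gene lists that passed the detection filter (each point a gene, coloured by its call between EpiSC and EsrrbNeg). The 11 streak genes and the 14 amino acid response genes higher in EpiSCs all lie to the right of 0, and 10 of the 11 naive genes lower in EpiSCs lie to the left.

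The largest rises in EpiSCs included collagen handling, amino acid stress and gastrulation genes. Serpinh1, the collagen chaperone of the endoplasmic reticulum, measured 11.49, 11.19 and 11.23 in EpiSCs, against 7.75, 7.42 and 8.07 in EsrrbNeg cells, a rise of 3.39 ± 0.15 (adjusted p = 3.45e-08). Serpinf1, which encodes a secreted serpin known to restrain blood vessel growth, averaged 8.09 ± 0.46 in EpiSCs and measured 4.99, 4.71 and 5.52 in EsrrbNeg cells (SD, n = 3, a rise of 2.79 ± 0.24, adjusted p = 3.82e-06). Igfbp5, an insulin-like growth factor binding protein, rose by 2.44 ± 0.30 (adjusted p = 4.66e-05). For these 3 genes every EpiSC array lay above every EsrrbNeg array by more than 1 log2 unit.

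In several other large rises EsrrbNeg replicate 3 stood well above its fellow replicates. Xlr4a, an X-linked lymphocyte-regulated gene with close copies that the probe may not separate, measured 9.02, 9.17 and 9.23 in EpiSCs, against 4.52, 4.53 and 7.05 in EsrrbNeg cells. Chac1, which degrades glutathione and is a target of the amino acid response, measured 10.28, 9.71 and 10.57 in EpiSCs, against 6.66, 6.04 and 8.14 in EsrrbNeg cells. The rise of Xlr4a was 3.21 ± 0.48 (adjusted p = 0.000172), 4.61 without replicate 3 and 2.09 against replicate 3 alone, and that of Chac1 was 3.01 ± 0.44 (adjusted p = 0.000137), 4.21 and 2.05. Replicate 3 was likewise the highest EsrrbNeg array for Pkdcc, a secreted kinase (2.52 ± 0.36, adjusted p = 0.00012, and 3.46 without replicate 3), Flt1, a VEGF receptor (2.47 ± 0.34, adjusted p = 0.000102, and 3.37) and Anxa5, which binds phosphatidylserine (2.41 ± 0.30, adjusted p = 4.84e-05, and 3.23). Against replicate 3 alone Pkdcc, Flt1 and Anxa5 rose by 1.77, 1.76 and 1.76. Lor, the cornified envelope protein loricrin, spread most among EpiSCs of these 12, with 7.44, 8.94 and 9.76 against 5.77, 5.85 and 6.85 in EsrrbNeg cells (2.37 ± 0.48, adjusted p = 0.00147). Its rise was 3.01 without EpiSC replicate 1 and 3.00 without EsrrbNeg replicate 3. Cdx2, Fgf8 and Gsc, also among the 12 largest rises, are described with the streak genes.

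The largest falls in EpiSCs held genes shared by ESCs and the egg or germline, and genes of epithelia. Ooep, an oocyte protein also made in ESCs, measured 5.02, 6.71 and 4.75 in EpiSCs, against 10.00, 9.78 and 9.62 in EsrrbNeg cells (-4.27 ± 0.41, adjusted p = 8.06e-06). Dppa5a, an RNA-binding protein of pluripotent cells, measured 8.77, 11.90 and 8.28 in EpiSCs, against 13.72, 13.49 and 13.33 in EsrrbNeg cells (-3.77 ± 0.72, adjusted p = 0.000998). Rps4l, a ribosomal protein gene copy, measured 6.99, 8.67 and 6.36 in EpiSCs, against a mean of 11.12 ± 0.21 in EsrrbNeg cells (SD, n = 3, a difference of -3.76 ± 0.45, adjusted p = 3.62e-05). EpiSC replicate 2 was the highest EpiSC array for all 3, and without it the falls were 4.88, 4.89 and 4.42 on the log2 scale. Without EpiSC replicate 3 the fall of Dppa5a was 3.08. Rbmxl2, an RNA-binding protein of the testis, fell by 2.86 (2.25 without EpiSC replicate 3), and Fmr1nb, also a testis gene, fell by 2.47.

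Mest, an imprinted gene expressed from the paternal allele, was detected on 2 of the 3 EpiSC arrays (4.97, 5.54 and 4.21, against 8.14, 7.72 and 7.67 in EsrrbNeg cells, a difference of -2.99 ± 0.29, adjusted p = 8.26e-06). The epithelial genes Rab25, a small GTPase of apical recycling, and Ap1m2, an adaptor subunit for sorting to the basolateral membrane, fell by 2.81 and 2.40. Shfl, an interferon-induced inhibitor of viral translation, measured 5.43, 4.96 and 5.31 in EpiSCs, against 8.49, 8.60 and 7.99 in EsrrbNeg cells (-2.77 ± 0.12, adjusted p = 3.45e-08), whereas a second Shfl probe differed by -0.45. Gab1, a docking protein for receptor tyrosine kinases, measured 7.91, 8.08 and 7.42 in EpiSCs, against 10.86, 10.62 and 10.40 in EsrrbNeg cells (-2.76 ± 0.17, adjusted p = 3.67e-07). Tmem54, a membrane protein, and Urah, an enzyme of urate breakdown, fell by 3.01 and 2.64. For these 12 falls the EsrrbNeg replicates lay within 1 log2 unit of each other.

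**Figure D2:**
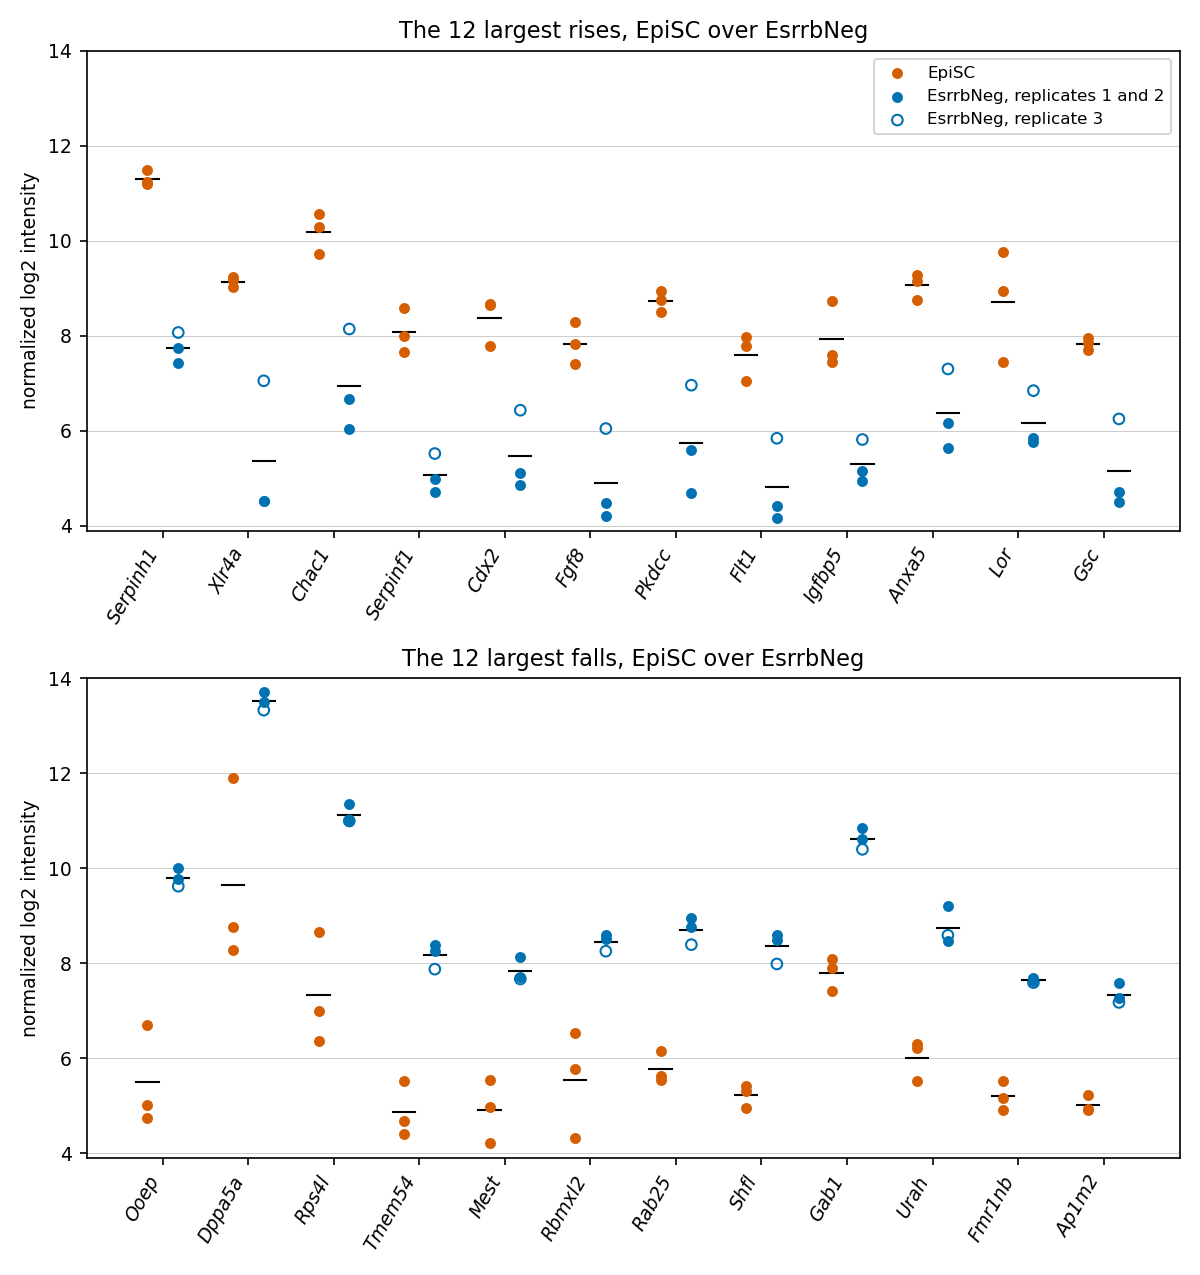
Normalized log2 intensity of the 12 genes with the largest rises (top) and the 12 with the largest falls (bottom) in EpiSCs, each point an array, EpiSC in orange to the left and EsrrbNeg in blue to the right, with EsrrbNeg replicate 3 open and group means as bars. Replicate 3 is the highest EsrrbNeg point for all 12 rises, and the EsrrbNeg points lie close together for the falls.

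Other genes were above background in 1 group only. A total of 165 genes (1.49%) were detected on all EpiSC arrays and on no EsrrbNeg array by any of their probes, and 224 (2.02%) were detected on all EsrrbNeg arrays and on no EpiSC array. For these a bound is given, the mean of the detected group against the lowest signal that counted as detected on each array of the other, or the signal of the probe where that was higher. Nkx2-2, a homeodomain factor of the ventral neural tube, was at least 2.65-fold higher in EpiSCs (6.11, 5.93 and 6.06, against 4.23, 4.52 and 4.64 in EsrrbNeg cells). The bound was 2.43 for Cda, a cytidine deaminase, 2.40 for Zadh2, 2.23 for Wnt5a, a noncanonical Wnt ligand, 2.22 for Rtl8c, a gene derived from a retrotransposon, and 2.20 for Barx1, a homeobox factor of the stomach and jaw. Ifi27, induced by interferon, and Ikzf1, a lymphoid zinc finger factor, followed at 1.96 and 1.92. Dimmer second probes differed by 0.18 for Wnt5a and 0.22 for Ikzf1.

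In the other direction Zfp819, a zinc finger factor, was not well above background in EpiSCs (4.56, 4.51 and 4.57) and measured 6.71, 6.57 and 6.19 in EsrrbNeg cells, so that it was at least 3.55-fold lower in EpiSCs. Kbtbd13 followed at 2.63, Sfn, the epithelial 14-3-3 protein, at 2.61, Upk2, a uroplakin of the bladder lining, at 2.61, and Tspyl3 at 2.38. AF067061, Rhox9 and Dmrtc1c1 completed the 8 largest bounds at 2.21, 2.08 and 2.00. Rhox9 is an X-linked homeobox gene of the germline and placenta. The EsrrbNeg values of AF067061 ran from 5.08 in replicate 3 to 6.46 in replicate 1, the widest spread of the 8. The bounds are on values as measured, and with the chip effect removed AF067061 differed by -0.95 ± 0.20 (adjusted p = 0.00195), less than its bound, and by -0.69 against EsrrbNeg replicate 3 alone.

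Gene lists were counted over every member with a probe, in a fit with no detection filter, because a gene that passed the filter only through the group in which it is high had to differ. In that fit 1268 of 31712 genes (4%) were higher in EpiSCs and 935 (2.95%) lower, around a median difference of 0.00. Because 11089 of the 31712 passed the filter, lists made mostly of detected genes can exceed these shares without standing out. With the filter 11.8% of genes were higher and 8.74% lower. The same shares were 17.1% and 11.4% for the cell cycle list, 13.6% and 9.09% for Polycomb and 15% and 5% for heat shock. Values of single genes are from the fit of 11089 genes.

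**Figure D3:**
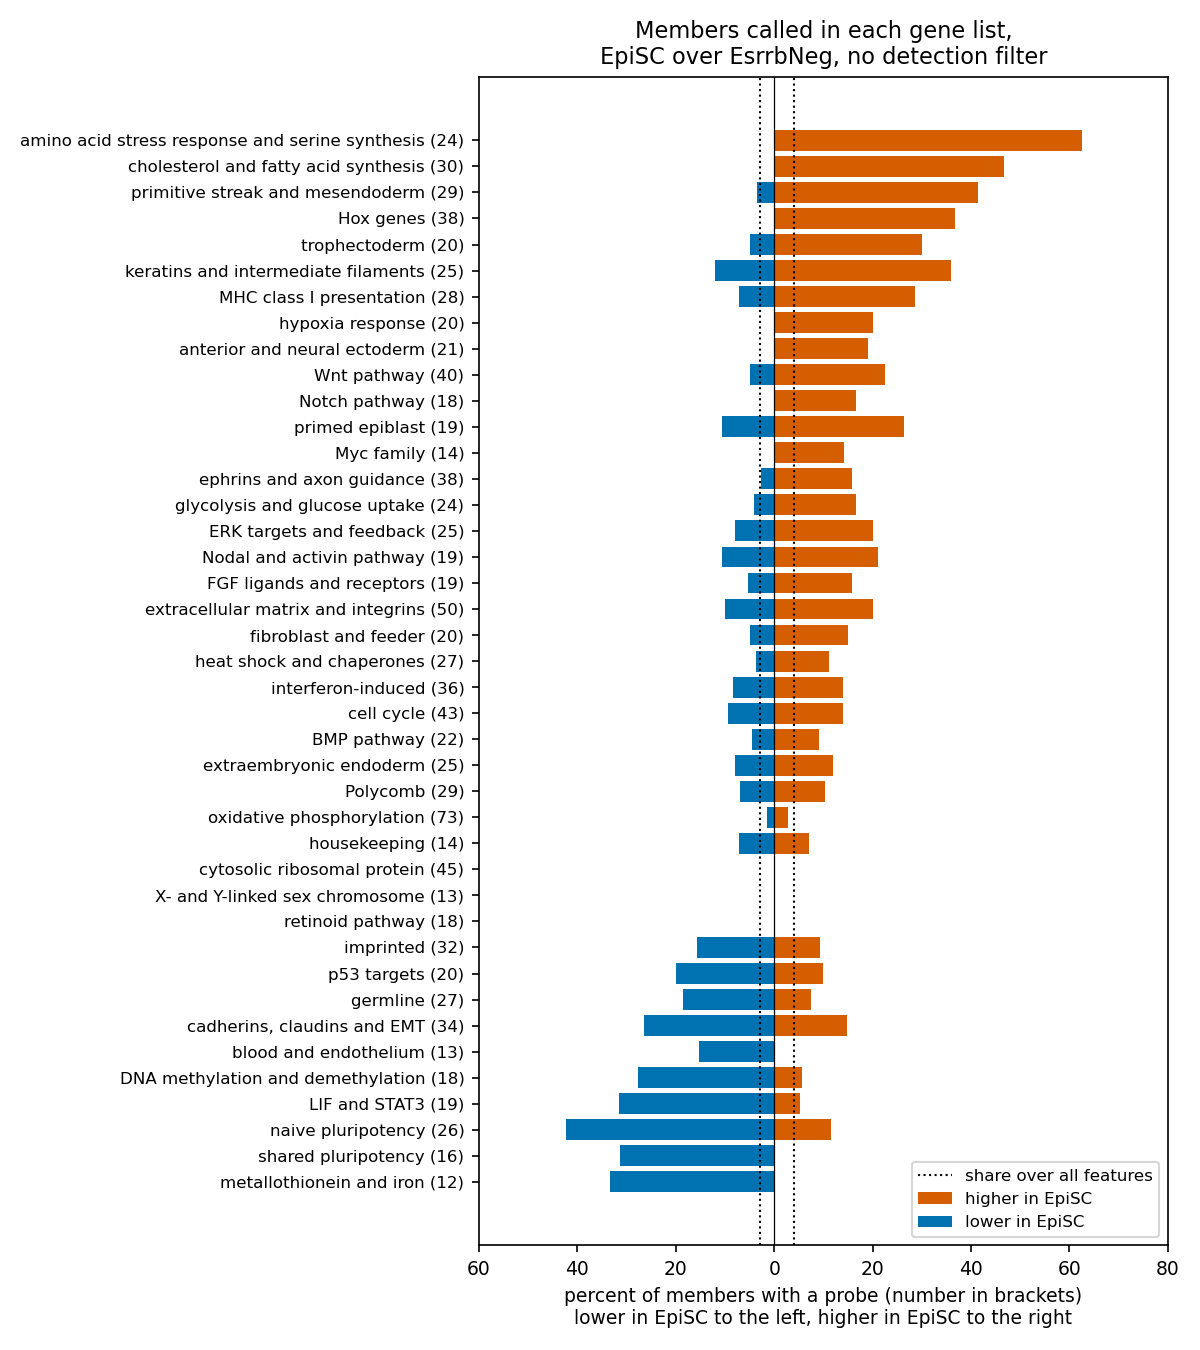
Percent of the members of each gene list called higher in EpiSCs (right, orange) or lower in EpiSCs (left, blue), out of all members with a probe (number in brackets, lists of at least 10), with dotted lines at the shares over all genes, 4% and 2.95%. Among genes that passed the detection filter the shares were 11.8% and 8.74%, so lists of mostly detected genes can exceed the lines without standing out. The amino acid response, cholesterol, streak and Hox lists extend farthest to the right, and the naive list farthest to the left.

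Esrrb was low in both groups and higher in EpiSCs, at 6.49, 5.94 and 6.37, against 5.75, 5.57 and 5.46 in EsrrbNeg cells (0.78 ± 0.15, adjusted p = 0.00131), far below its mean of 11.91 in EsrrbHi cells. The Esrrb call ended in 6 of 29 settings, among them quantiles with no background correction, an offset of 50 and the deposited values. Nanog was higher in EpiSCs too (9.33, 9.26 and 8.93, against 8.23, 7.70 and 8.45 in EsrrbNeg cells, 0.72 ± 0.19, adjusted p = 0.00789). A second and dimmer Nanog probe differed by 0.29 (adjusted p = 0.20) and was not called. The call of the brighter Nanog probe ended in 4 of 29 settings, among them only the EpiSC and EsrrbNeg arrays. Pou5f1, which encodes OCT4, differed by -0.48 ± 0.13 (adjusted p = 0.0074), less than 1.5-fold, and passed both thresholds without EsrrbNeg replicate 3 (-0.59, adjusted p = 0.0141). Sox2 fell by 1.20 ± 0.20 on its bright probe (6.47, 6.75 and 6.04 in EpiSCs, against 7.74, 8.30 and 7.49 in EsrrbNeg cells, adjusted p = 0.000417), whereas a dimmer probe differed by -0.16 (adjusted p = 0.38).

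Several naive transcripts that EsrrbNeg cells still held were lower in EpiSCs. Of 26 naive genes with a probe 11 were lower and 3 higher, with a median difference of -0.32. Zfp42 (Rex1), a zinc finger marker of naive cells, measured 5.23, 4.93 and 4.74 in EpiSCs, against 7.46, 7.40 and 6.77 in EsrrbNeg cells (-2.08 ± 0.17, adjusted p = 1.95e-06) and averaged 10.82 in EsrrbHi cells. Dppa3 (Stella), a maternal factor that shields DNA from methylation, measured 4.55, 4.76 and 4.77 in EpiSCs, against 7.08, 7.15 and 6.66 in EsrrbNeg cells (-2.16 ± 0.14, adjusted p = 3.67e-07). Fbxo15, a target of OCT4 and SOX2, fell by 2.15 (2.63 without EsrrbNeg replicate 3), and Dppa4 and Dppa2, partners that bind chromatin, fell by 2.37 and 1.17. Nr5a2, a nuclear receptor, Tcl1, a coactivator of AKT, and Klf5 fell by 1.45, 1.28 and 1.21, and a second Tcl1 probe differed by -0.27. Dppa4 was again uneven among EpiSCs (9.94, 9.57 and 8.27). Tfcp2l1 measured 5.32, 5.24 and 5.34 in EpiSCs, against 6.29, 5.91 and 6.03 in EsrrbNeg cells (-0.80 ± 0.15, adjusted p = 0.0007), both well below its mean of 9.95 in EsrrbHi cells. The genes higher in EpiSCs were Esrrb, Nanog and Mras, a RAS-like GTPase.

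Of 16 genes shared by naive and primed cells 5 were lower and none was higher in EpiSCs. Besides Sox2 these included Gdf3, a ligand of the Nodal family (-0.92 ± 0.11, adjusted p = 2.8e-05), Zscan10, a zinc finger partner of OCT4 (-0.91 ± 0.15, adjusted p = 0.000344), and Lin28a, an inhibitor of let-7 processing (-0.86 ± 0.15, adjusted p = 0.000479). Of the 19 primed epiblast genes 5 were higher and 2 lower. Fgf5, the standard marker of the primed epiblast, measured 10.10, 10.16 and 10.31 in EpiSCs, against 7.13, 6.88 and 8.68 in EsrrbNeg cells (2.15 ± 0.27, adjusted p = 5.59e-05), with 2.95 without EsrrbNeg replicate 3 and a mean of 4.46 in EsrrbHi cells. Car14, a carbonic anhydrase, and Sall3, a zinc finger factor, rose by 1.15 and 1.08. Foxp1, a forkhead factor, moved the other way (6.05, 5.96 and 5.74 in EpiSCs, against 7.51, 7.58 and 7.04 in EsrrbNeg cells, -1.42 ± 0.16, adjusted p = 2.67e-05).

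Genes of the primitive streak and its descendants were higher in EpiSCs in many cases. Of 29 with a probe 12 were higher and 1 lower in EpiSCs, with a median difference of 0.41. Of the 15 that passed the detection filter 7 did so through EpiSC arrays alone. Gsc, a homeobox factor of the organizer, measured 7.96, 7.84 and 7.71 in EpiSCs, against 4.49, 4.72 and 6.25 in EsrrbNeg cells (2.37 ± 0.33, adjusted p = 0.000107). Cdx2, a caudal homeobox factor of the posterior embryo and of trophectoderm, measured 7.78, 8.65 and 8.66 in EpiSCs, against 5.12, 4.86 and 6.43 in EsrrbNeg cells (2.56 ± 0.33, adjusted p = 5.68e-05). Fgf8, the FGF ligand that cells need to leave the streak, measured 8.28, 7.41 and 7.82 in EpiSCs, against 4.47, 4.22 and 6.05 in EsrrbNeg cells (2.55 ± 0.35, adjusted p = 9.25e-05). For all 3, EsrrbNeg replicate 3 lay between the EpiSC arrays and the other EsrrbNeg arrays. Without it the rises were 3.35, 3.34 and 3.49, and against it alone they were 1.58, 1.93 and 1.79.

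Eomes, a T-box factor of mesendoderm, was detected on all EpiSC arrays (6.44, 7.18 and 7.07) and on 1 EsrrbNeg array (4.42, 4.29 and 5.63), a rise of 1.87 ± 0.29 (adjusted p = 0.000212) and of 2.62 without replicate 3. Lhx1, a LIM homeobox factor of the organizer (1.57 ± 0.21, adjusted p = 7.26e-05), Chrd, the BMP antagonist chordin (1.53 ± 0.20, adjusted p = 7.06e-05), and Evx1, a homeobox factor of the posterior streak (1.47 ± 0.21, adjusted p = 0.000122), followed. Nkx1-2 was at least 1.73-fold higher, having been detected on no EsrrbNeg array. Fgf17 was the member that fell (5.73, 5.82 and 6.04 in EpiSCs, against 8.08, 7.75 and 7.33 in EsrrbNeg cells, -1.62 ± 0.16, adjusted p = 9.17e-06), although it belongs to the same FGF subfamily as Fgf8. Against replicate 3 alone the 11 rises called in the filtered fit ran from 0.66 to 1.93. Mixl1, Foxa2, Tbx6, Mesp1 and Wnt3 were among the 14 members with a probe that did not pass the detection filter.

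EpiSCs also expressed Hox genes, which pattern the trunk along the head-to-tail axis. Of 38 Hox genes with a probe 14 were higher and none was lower in EpiSCs, with a median difference of 0.09. The 15 that passed the filter did so through EpiSC arrays alone in 11 cases. Hoxc9 measured 7.45, 7.02 and 7.50 in EpiSCs, against 4.42, 4.30 and 5.74 in EsrrbNeg cells (2.17 ± 0.26, adjusted p = 3.75e-05), and 2.90 without EsrrbNeg replicate 3. Hoxc6 measured 7.21, 6.54 and 7.09 in EpiSCs, against 4.51, 4.74 and 5.60 in EsrrbNeg cells (1.79 ± 0.25, adjusted p = 9.63e-05). Hoxa7, Hoxa5, Hoxd8, Hoxd10 and Hoxb2 rose by 1.72, 1.53, 1.51, 1.38 and 1.28, so members of all 4 clusters were represented. The EpiSC replicates were close together for these genes. No EsrrbNeg value reached an EpiSC value of the same gene in any of the 14, which sets them little apart. Among all 2279 called genes 47 overlapped between the groups. Hoxd9, Hoxd4, Hoxa2 and Hoxa9 were detected on all EpiSC arrays and no EsrrbNeg array. Hoxa13 also passed the filter and was not called. Hoxc9, Hoxc6, Hoxa7, Hoxa5 and Hoxd8 kept their calls under all 29 settings tried. The other called Hox genes, every B cluster member among them, lost theirs with quantiles and no background correction. They also lost them in the deposited log2 values.

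Of 21 anterior and neural genes 4 were higher and none lower in EpiSCs. En1, a homeobox factor of the midbrain and of the ventral limb, was the most abundant, at 8.58, 8.65 and 8.67 in EpiSCs, against 5.29, 5.93 and 7.12 in EsrrbNeg cells (2.11 ± 0.29, adjusted p = 9.58e-05), or 2.87 without EsrrbNeg replicate 3. En2, its paralogue, and Ncam1, a neural adhesion molecule, rose by 1.13 and 1.20.

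**Figure D4:**
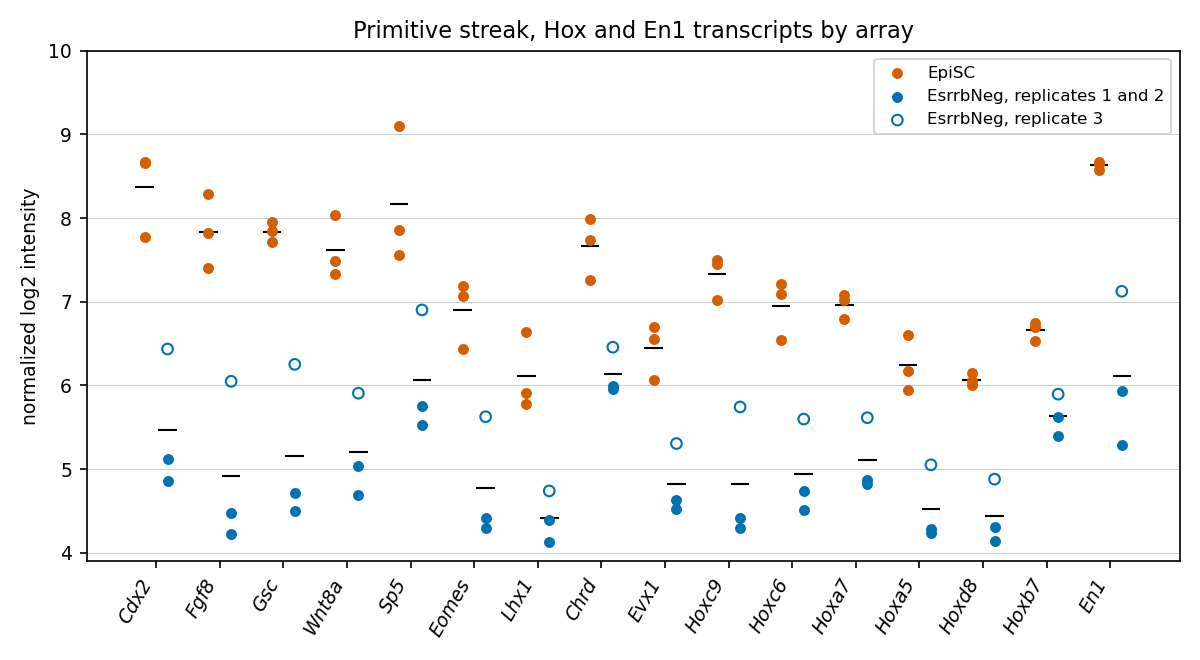
Normalized log2 intensity of 9 streak genes, 6 Hox genes and En1 by array, EpiSC in orange to the left and EsrrbNeg in blue to the right, with bars at group means. EsrrbNeg replicate 3, drawn open, is the highest EsrrbNeg point for all 16 genes and stays below the EpiSC points.

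Signalling pathways held genes that moved in both directions. With the filter 25% of FGF genes were higher and 16.7% lower, and 16.7% of BMP genes each way. The shares over all genes were 11.8% and 8.74%. Both lists rest on 12 members, too few to set them apart. Among 19 FGF ligands and receptors Fgf8, Fgf5 and Fgfbp3, which releases FGFs from the matrix, rose, the last by 1.56 ± 0.20 (adjusted p = 6.19e-05), while Fgf17 fell. Fgfr2 differed by -0.72 (adjusted p = 0.0129) and by -0.49 without EpiSC replicate 3, which ended its call. Of 25 ERK targets and feedback genes 5 were higher and 2 lower with no filter. Egr1, an immediate early factor, measured 10.30, 11.72 and 10.96 in EpiSCs, against 9.19, 9.34 and 10.05 in EsrrbNeg cells (1.41 ± 0.35, adjusted p = 0.00536), and Il17rd, a feedback inhibitor of FGF receptors, rose by 0.99 ± 0.12 (adjusted p = 3.94e-05). Etv5, an ETS factor that responds to FGF, fell by 0.96 ± 0.12 (adjusted p = 5.59e-05), and Spry4, a feedback inhibitor, fell by 0.83. Fos was uneven among EpiSCs (6.99, 8.70 and 6.85, against 5.69, 5.70 and 6.77 in EsrrbNeg cells), and its call (1.15, adjusted p = 0.040) ended when any 1 of 9 arrays was left out, with 0.55 (adjusted p = 0.054) without EpiSC replicate 2. EpiSC replicate 2 was the highest EpiSC array for 6 of the 7 ERK genes called higher with the filter.

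In the Nodal and activin pathway, which the EpiSC medium stimulates, 4 of 19 genes were higher and 2 lower with no filter, and 5 and 3 of 15 with it. Lefty1, a feedback inhibitor of Nodal, measured 11.66, 11.31 and 10.73 in EpiSCs, against 10.01, 9.27 and 10.04 in EsrrbNeg cells (1.41 ± 0.26, adjusted p = 0.000726). Fst, follistatin, which binds activin, measured 7.66, 8.95 and 8.34 in EpiSCs, against 5.38, 5.27 and 7.08 in EsrrbNeg cells (1.95 ± 0.37, adjusted p = 0.00095), or 2.83 without EsrrbNeg replicate 3. Its call ended in a fit of only the EpiSC and EsrrbNeg arrays. Furin, a protease that cuts the Nodal precursor, and Smad3, the signal transducer, rose by 1.16 and 1.03. Gdf1, a ligand that pairs with Nodal, moved the other way (6.29, 6.45 and 6.10 in EpiSCs, against 8.32, 8.14 and 8.09 in EsrrbNeg cells, -1.84 ± 0.14, adjusted p = 1.33e-06).

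Of 22 BMP genes 2 were higher and 1 lower with no filter. Chrd and Bmp7 rose by 1.53 and 1.46, and Id2, a direct BMP target, fell by 0.98 ± 0.23 (6.46, 7.19 and 6.46 in EpiSCs, against 7.42, 7.36 and 7.54 in EsrrbNeg cells, adjusted p = 0.00370). Id1, another direct target, measured 7.83, 8.78 and 7.08 in EpiSCs, against 9.34, 9.77 and 9.21 in EsrrbNeg cells (-1.42 ± 0.38, adjusted p = 0.00879), but was not called with no filter (adjusted p = 0.0619) or with a robust and trended fit (0.0569). Of 40 Wnt genes 9 were higher and 2 lower. The ligand Wnt8a measured 7.48, 7.34 and 8.04 in EpiSCs, against 5.04, 4.68 and 5.91 in EsrrbNeg cells (2.19 ± 0.25, adjusted p = 2.86e-05), or 2.79 without EsrrbNeg replicate 3. Sp5, a transcriptional target of Wnt, measured 7.56, 9.10 and 7.85 in EpiSCs, against 5.75, 5.53 and 6.90 in EsrrbNeg cells (1.96 ± 0.42, adjusted p = 0.00201), or 2.81 without replicate 3. The call of Sp5 ended in a fit of only the EpiSC and EsrrbNeg arrays. The receptors split, with Fzd10 up by 1.61 and Fzd7 down by 1.26 ± 0.15 (adjusted p = 4.24e-05). Porcn, which acylates Wnt ligands, rose by 1.32 ± 0.20 (adjusted p = 0.000182), and a second, dimmer Porcn probe differed by 0.29 (adjusted p = 0.14). Of 18 Notch genes 3 were higher, led by the target Hes1 (7.88, 8.22 and 7.34 in EpiSCs, against 5.91, 6.02 and 6.48 in EsrrbNeg cells, 1.59 ± 0.22, adjusted p = 0.000104). Of 19 LIF and STAT3 genes 6 were lower and 1 higher. Stat3 itself measured 7.07, 7.02 and 6.87 in EpiSCs, against 7.82, 7.97 and 8.05 in EsrrbNeg cells (-1.11 ± 0.11, adjusted p = 8.06e-06), and Bcl3, a STAT3 target, was at least 1.99-fold lower.

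Counted with no filter, the largest share of any list was that of the amino acid stress response, the programme of ATF4 that raises amino acid synthesis and uptake. With the filter its share of 70% stood below those of the Hox (93.3%), anterior and neural (83.3%) and streak (73.3%) lists. Of 24 members with a probe 15 were higher and none lower in EpiSCs, with a median difference of 0.84. Below Chac1 stood Trib3, a pseudokinase that feeds back on ATF4, at 8.85, 9.25 and 8.35 in EpiSCs, against 6.53, 6.28 and 7.31 in EsrrbNeg cells (2.10 ± 0.31, adjusted p = 0.000139), or 2.85 without EsrrbNeg replicate 3. Asns, asparagine synthetase, measured 11.06, 11.71 and 11.81 in EpiSCs, against 10.04, 9.58 and 10.67 in EsrrbNeg cells (1.17 ± 0.23, adjusted p = 0.00123). Atf4 itself rose by 0.89 ± 0.17 (adjusted p = 0.000864), and its relatives Atf5 and Ddit3 (CHOP) by 1.68 and 1.29. The serine and one-carbon enzymes Shmt2, Psat1 and Mthfd2 rose by 1.33, 0.93 and 0.85, whereas Phgdh, the first enzyme of serine synthesis, differed by 0.03 and Shmt1, the cytosolic partner of Shmt2, by -0.47. EsrrbNeg replicate 3 lay on the EpiSC side for all 14 members called with the filter, and against it alone their differences ran from 0.41 to 2.05. Without it 14 were called higher and 1, Cbs, lower (-0.76).

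Promoters of 3 of these genes are shown because they hold the ATF4-type element TGATGNAA, in which N is any base, on either strand within 250 bases before the start. The element occurs in 3 of the 18 filtered members with a promoter in the RefSeq table (GRCm38.p6), in 3 of 17 sterol list members, in 2.46% of the genes called higher and in 3.91% of all 27025 genes of that table. It was 1 of 13 motifs searched in 6 lists. A match is a description and not a site of binding. Capitals mark the element, and all sequences run 5′ to 3′ toward the gene.
Chac1, chr2:119350992-119351241, plus strand: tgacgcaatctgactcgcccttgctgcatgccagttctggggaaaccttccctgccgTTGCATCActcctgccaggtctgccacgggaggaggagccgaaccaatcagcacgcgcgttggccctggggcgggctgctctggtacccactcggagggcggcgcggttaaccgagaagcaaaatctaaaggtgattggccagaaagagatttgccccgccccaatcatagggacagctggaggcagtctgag
Vldlr, chr19:27216770-27217019, plus strand: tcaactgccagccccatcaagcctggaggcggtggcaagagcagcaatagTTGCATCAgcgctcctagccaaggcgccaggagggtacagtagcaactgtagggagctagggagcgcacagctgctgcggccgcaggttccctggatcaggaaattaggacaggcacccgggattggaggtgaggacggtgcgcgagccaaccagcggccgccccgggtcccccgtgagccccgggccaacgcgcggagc
Asns, chr6:7693210-7693459, minus strand: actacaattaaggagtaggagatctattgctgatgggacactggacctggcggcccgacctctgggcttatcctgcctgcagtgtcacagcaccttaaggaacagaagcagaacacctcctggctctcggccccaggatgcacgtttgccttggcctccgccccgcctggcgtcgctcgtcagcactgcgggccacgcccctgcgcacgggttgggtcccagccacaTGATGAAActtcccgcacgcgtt
The element began 193 bases before the start in Chac1, 200 in Vldlr (1 of its 2 starts) and 23 in Asns. Vldlr, a lipoprotein receptor induced by ATF4, measured 7.30, 8.34 and 6.76 in EpiSCs, against 4.74, 4.75 and 6.15 in EsrrbNeg cells (1.95 ± 0.39, adjusted p = 0.00145), or 2.73 without EsrrbNeg replicate 3. The promoter of Sp5 is set beside them because it holds the TCF and LEF core CTTTGA, present in 4 of 13 Wnt list members and in 15.8% of all genes, at 2 places that began 204 and 104 bases before the start.
Sp5, chr2:70474673-70474922, plus strand: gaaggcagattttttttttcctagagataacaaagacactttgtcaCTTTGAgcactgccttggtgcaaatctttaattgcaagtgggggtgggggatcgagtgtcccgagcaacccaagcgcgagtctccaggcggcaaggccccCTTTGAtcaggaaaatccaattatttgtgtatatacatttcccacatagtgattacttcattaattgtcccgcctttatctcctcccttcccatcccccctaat

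Sterol and fatty acid synthesis moved in 1 direction. Of 30 genes with a probe 14 were higher and none lower in EpiSCs, with a median difference of 0.51. The fatty acid desaturases led. Scd1 measured 9.48, 9.64 and 9.70 in EpiSCs, against 6.85, 6.68 and 7.72 in EsrrbNeg cells (2.25 ± 0.18, adjusted p = 1.68e-06). Fads1 measured 11.17, 11.38 and 11.30 in EpiSCs, against 9.21, 8.89 and 9.80 in EsrrbNeg cells (1.95 ± 0.21, adjusted p = 1.97e-05). Scd2 rose by 1.21, or by 1.92 without EsrrbNeg replicate 3, and Fads2 by 1.56. Along the sterol pathway Msmo1, Fdps, Mvd and Nsdhl rose by 1.40, 1.05, 0.93 and 0.79. The EpiSC replicates lay within 1 log2 unit of each other for these 8 genes. Srebf2, which encodes the transcription factor that drives the pathway, differed by 0.44, and Sqle and Acly, enzymes of the same pathways, by 0.34 and 0.09, none of them called.

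**Figure D5:**
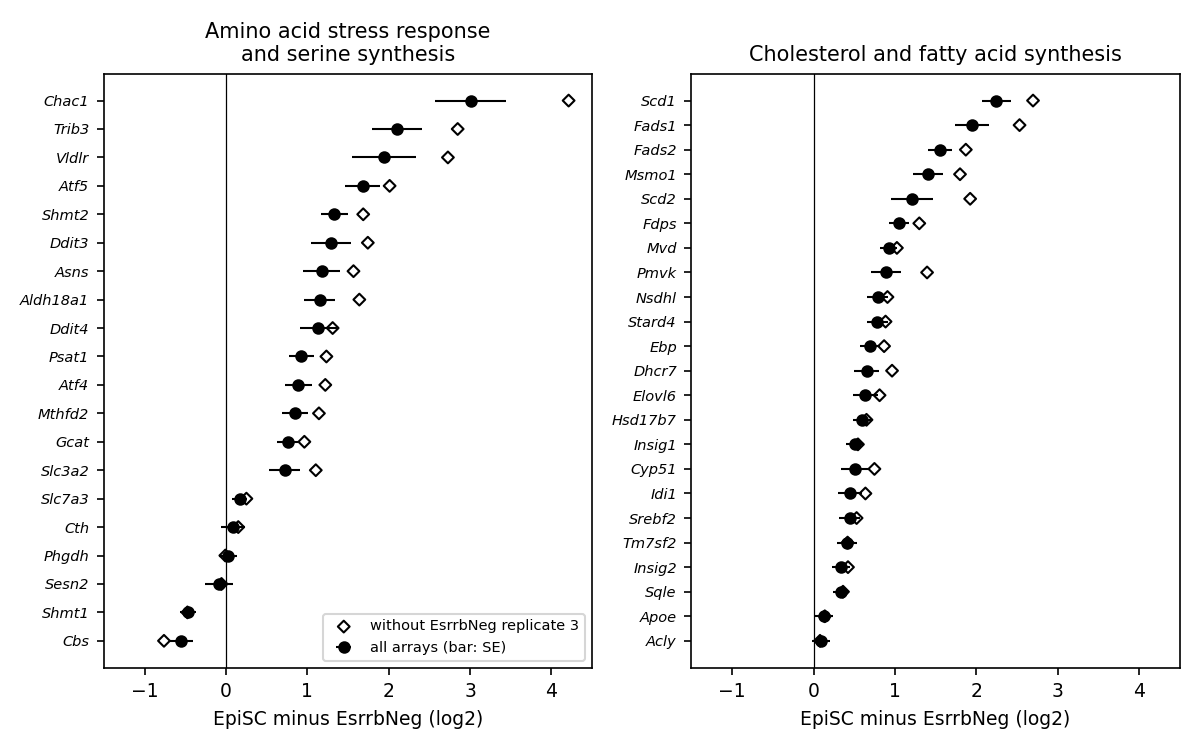
Log2 difference of EpiSC minus EsrrbNeg for the members of 2 lists that passed the detection filter, with filled points and SE bars for the fit over all arrays and open diamonds for the fit without EsrrbNeg replicate 3. Most called genes lie farther to the right without that array, Chac1 at 4.21 in place of 3.01.

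Junction and splicing genes of epithelia were lower in EpiSCs, and single mesenchymal genes were higher. Of 34 cadherin, claudin and transition genes 9 were lower and 5 higher in EpiSCs. Grhl2, a driver of epithelial identity, measured 5.03, 5.68 and 4.65 in EpiSCs, against 7.24, 7.15 and 7.14 in EsrrbNeg cells (-2.23 ± 0.23, adjusted p = 1.39e-05). Cldn4, a tight junction claudin, measured 6.23, 6.45 and 5.90 in EpiSCs, against 8.61, 8.40 and 8.22 in EsrrbNeg cells (-2.18 ± 0.17, adjusted p = 1.4e-06). Cdh1, E-cadherin, was lower yet abundant in both, at 8.40, 8.64 and 8.43 in EpiSCs, against 9.30, 9.31 and 9.15 in EsrrbNeg cells (-0.92 ± 0.15, adjusted p = 0.000354). The splicing factors Esrp2 and Esrp1, which hold epithelial isoforms in place, fell by 1.11 and 0.77. Zeb1, which represses E-cadherin, was detected on all EpiSC arrays (6.84, 6.63 and 6.56) and on 1 EsrrbNeg array (4.47, 4.53 and 5.30), a rise of 1.73 ± 0.18 (adjusted p = 1.51e-05). Vim, the mesenchymal filament vimentin, measured 9.21, 9.27 and 9.07 in EpiSCs, against 6.64, 6.88 and 7.72 in EsrrbNeg cells (1.86 ± 0.19, adjusted p = 1.44e-05).

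Other filament genes did not follow that division. Of 25 keratin and filament genes 9 were higher and 3 lower. The simple epithelial keratins Krt8 and Krt19 rose by 1.12 ± 0.16 (adjusted p = 0.000128) and 1.47 ± 0.25 (adjusted p = 0.000377), as did the neurofilament Nefm (7.19, 7.08 and 7.75 in EpiSCs, against 4.68, 4.39 and 5.31 in EsrrbNeg cells, 2.28 ± 0.20, adjusted p = 3.87e-06), while Krt17 fell by 1.93 ± 0.15 (adjusted p = 1.68e-06). Of 50 matrix and integrin genes 10 were higher and 5 lower with no filter. Col5a1, a fibrillar collagen, measured 8.59, 7.90 and 8.43 in EpiSCs, against 6.03, 5.83 and 6.85 in EsrrbNeg cells (1.86 ± 0.22, adjusted p = 3.84e-05), and Bgn, a small proteoglycan, 6.81, 5.72 and 6.18 in EpiSCs, against 4.76, 4.52 and 4.86 in EsrrbNeg cells (1.55 ± 0.24, adjusted p = 0.000191). Hspg2, the basement membrane proteoglycan perlecan, and Fn1, fibronectin, fell by 1.04 and 0.89. EpiSC replicate 1 was the highest EpiSC array for 8 of the 11 matrix genes called higher with the filter.

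Markers of other cell types were counted next. Of 20 fibroblast genes with a probe 3 were higher and 1 lower, and the mean log2 level of the 9 that passed the filter was 6.66, 6.10 and 6.09 in EpiSCs, against 5.69, 5.60 and 5.85 in EsrrbNeg cells. Acta2, smooth muscle actin, measured 11.48, 9.71 and 9.55 in EpiSCs, against 7.50, 7.33 and 8.23 in EsrrbNeg cells (2.26 ± 0.42, adjusted p = 0.000762), or 1.65 without EpiSC replicate 1. Col1a1 was barely above background in EpiSCs (5.42, 4.96 and 4.95), and Col1a2, Col3a1, Postn and Lum did not pass the filter. The part of such cells in the matrix and filament changes was not tested. Trophectoderm genes were higher in 6 of 20 cases and lower in 1, and those that rose, Cdx2, Eomes, Krt8, Krt19, Krt7 and Tfap2c, have roles outside trophectoderm. Of 25 extraembryonic endoderm genes 3 were higher and 2 lower, and Gata4, Gata6, Sox17, Sox7 and Pdgfra did not pass the filter. Of 13 blood and endothelium genes Tek and Pecam1 were lower and none was higher.

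Of 28 genes of MHC class I antigen presentation 8 were higher and 2 lower in EpiSCs. H2-Bl measured 8.08, 8.58 and 8.76 in EpiSCs, against 5.65, 5.53 and 6.73 in EsrrbNeg cells (2.25 ± 0.28, adjusted p = 4.46e-05), or 2.89 without EsrrbNeg replicate 3. H2-T23 and H2-K1 rose by 1.58 and 1.25, the shared light chain B2m by 0.71 ± 0.17 (adjusted p = 0.00412) and the peptide transporter Tap2 by 0.65 ± 0.11 (adjusted p = 0.000377). Class I genes are near copies of each other, so single H2 values are uncertain. H2-Ke6 (1.32 ± 0.13, adjusted p = 8.26e-06), counted among the 8, is named for its place in the same region. It encodes a steroid dehydrogenase and not an antigen-presenting molecule. Interferon-induced genes went both ways, 5 of 36 higher and 3 lower. Bst2, tetherin, rose by 1.11 ± 0.20 (adjusted p = 0.000653), while Ifitm1, also a marker of early germ cells, measured 9.67, 10.10 and 9.57 in EpiSCs, against 11.84, 12.12 and 11.84 in EsrrbNeg cells (-2.13 ± 0.15, adjusted p = 8.25e-07).

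Of 18 DNA methylation genes 5 were lower and 1 higher in EpiSCs. Dnmt3l, the cofactor of the de novo methyltransferases, measured 10.54, 10.35 and 9.84 in EpiSCs, against 12.87, 12.73 and 12.40 in EsrrbNeg cells (-2.27 ± 0.17, adjusted p = 1.46e-06). Tet1, which oxidizes methylcytosine, fell by 1.58 ± 0.22 (adjusted p = 9.25e-05), and Uhrf2 rose by 0.79. Germline genes, several of which are silenced by promoter methylation, were lower in 5 of 27 cases and higher in 2. Tex19.1 and Dnd1, which protect germ cells, fell by 1.42 and 1.30, whereas Tdrkh, a partner of piRNA proteins, measured 9.90, 9.77 and 10.08 in EpiSCs, against 7.51, 7.52 and 8.54 in EsrrbNeg cells (1.90 ± 0.23, adjusted p = 4.48e-05), or 2.55 without EsrrbNeg replicate 3. Of 32 imprinted genes 5 were lower and 3 higher. Besides Mest, the maternally expressed Rian was at least 1.99-fold lower and its paternally expressed neighbours Dlk1 and Rtl1 fell by 1.06 and 0.75. Igf2, the fetal growth factor, measured 12.05, 10.78 and 11.19 in EpiSCs, against 8.69, 7.89 and 10.12 in EsrrbNeg cells (1.85 ± 0.39, adjusted p = 0.00179), or 2.65 without EsrrbNeg replicate 3. The call of Igf2 ended in a fit of only the EpiSC and EsrrbNeg arrays.

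Of 20 hypoxia genes 4 were higher and none lower with no filter, and 6 and 2 of 14 with it. EpiSC replicate 2 was the highest EpiSC array for each of those 6 and 2 genes. Vegfa, the main angiogenic growth factor, measured 7.43, 7.51 and 7.07 in EpiSCs, against a mean of 5.22 ± 0.78 in EsrrbNeg cells (SD, n = 3, a rise of 1.96 ± 0.33, adjusted p = 0.000361), or 2.73 without EsrrbNeg replicate 3, and Bnip3l, a receptor for mitophagy, rose by 1.11. Glucose handling genes were higher in 4 of 24 cases and lower in 1 with no filter. With the filter the shares were 20% and 10%, near the 11.8% and 8.74% of all genes. Aldoc, a brain-type aldolase, rose by 1.70 ± 0.25 (adjusted p = 0.000161) and the transporter Slc2a3 by 1.09 ± 0.18 (adjusted p = 0.000306). Of 12 metallothionein and iron genes 4 were lower, among them the iron exporter Slc40a1 (-1.29 ± 0.19, adjusted p = 0.00013) and the transferrin receptor Tfrc (-1.14 ± 0.14, adjusted p = 3.78e-05). In the cell cycle list 6 of 43 genes were higher and 4 lower. Ccnd2, cyclin D2, rose by 1.83 ± 0.24 (adjusted p = 6.15e-05) and Ccne1, cyclin E1, fell by 1.09 ± 0.10 (adjusted p = 5.95e-06). Among 20 p53 targets 2 were higher and 4 lower. Cdkn1a, p21, had the larger rise, at 1.23, and Phlda3 was among those that fell (-1.14 ± 0.16, adjusted p = 0.000106). With the filter 13.3% of p53 targets were higher and 26.7% lower, beside 11.8% and 8.74% of all genes.

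Some lists held few or no calls. None of 45 cytosolic ribosomal protein genes was called in either direction, and none of 13 sex chromosome genes and 18 retinoid genes was called with no filter. Of 73 oxidative phosphorylation genes 2 were higher and 1 lower. The mean log2 level of the 40 ribosomal genes that passed the filter was 12.6 on every EpiSC array and 12.5 to 12.6 in EsrrbNeg cells. Of 14 housekeeping genes 1 was higher (B2m) and 1 lower (Tfrc).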

How the data were processed

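RNA of 12 samples (4 groups of 3) was hybridised to Illumina MouseWG-6 v2 bead arrays on 2 chips of 6 arrays. The authors deposited summarised intensity values from beadarray, neither background corrected nor normalized, with a detection p-value for each probe and array. They also deposited log2 values after quantile normalization and ComBat, used here only as an alternative. Deposited values and intensities had a Spearman correlation of 1 on each EpiSC array and of 0.978 to 0.996 on the sorted ESC arrays. The deposited values thus kept the probe order of the EpiSC arrays, and a batch correction of these arrays is not apparent. Versions are not given in the sources used here.

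Intensities were normexp corrected by detection value and quantile normalized with an offset of 16 (neqc in limma 3.58.1, R 4.3.3). A probe was kept where any group had detection values no higher than 0.01 on each of its arrays (14834 of 45281), and the brightest probe stood for each gene (11089 genes, of which 2602 had no symbol). Symbols came from the platform annotation, in which 32093 probes had 1 name, 16 several and 13172 none. limma was fitted to all 12 arrays with group and chip as terms, EpiSC minus EsrrbNeg was tested, and p-values were adjusted by Benjamini-Hochberg over all genes. The script was tested on simulated data. The number of arrays limits the precision.

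The members and gene lists were chosen with earlier results of these data known. Genes were named as the 12 largest rises and falls without overlap between groups, the 8 largest bounds in each direction, Esrrb, Nanog, Pou5f1, Sox2 and members of 42 gene lists. Alternatives changed the chip term, background correction, normalization, filter, probe choice, fold and samples. Scaling to the median of all probes, list counts with no filter and a replicate block over the sorted ESCs were chosen after seeing the data.

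Promoters (250 bases before the start, both strands) were searched for an ATF4-type element (TGATGNAA), its form with C at the free base (TGATGCAA), an SREBP element (TCACNCCAC), a CCAAT box (CCAAT), a TCF and LEF core (CTTTGA), a FOXH1 element (AATCCACA), a T-box element (TCACACCT), an E-box (CACGTG), an octamer part (TTTGCAT), an ETS element (CCGGAAG), a CRE (TGACGTCA), an ESRRB element (TCAAGGTCA) and a KLF element (GGGTGTGG). An OCT4 and SOX2 composite motif was also looked at and dropped. Of the 8487 tested genes with a symbol 6931 had a promoter in the table.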

Additional observations from a re-analysis of the deposited data

How the results depend on the processing

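No gene called in the comparison was called in the opposite direction under any setting tried. The count of higher and lower genes (1310 and 969) moved most with scaling and background. It was 498 and 338 with quantiles and no background correction, 668 and 460 with an offset of 50, 385 and 125 with scaling on the median of all probes (975 and 1002 on that of probes detected on every array), 545 and 335 in the deposited log2 table without a chip term, and 533 and 324 with one (9990 genes). Chip 2 alone gave 723 higher and 648 lower genes, and a fold of 2 gave 420 and 286. At a detection value of 0.05 the genes detected in 1 group only were 51 for EpiSC and 116 for EsrrbNeg. Leaving out 1 array at a time gave 1220 to 1631 higher and 915 to 1254 lower genes, the highest of both without EsrrbNeg replicate 3. Of 292 named genes that were called, 81 kept their call under all 29 settings and 237 under every omission of 1 array. A fit of only the EpiSC and EsrrbNeg arrays ended 87 of the 292 calls, Fst, Sp5, Igf2, Asns, Egr1, Lor and Acta2 among them. Klf2 (0.06, not called) was called lower without EpiSC replicate 2 (-0.75), and was 0.63 without EpiSC replicate 3.

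Replicate numbers did not pair EpiSC with EsrrbNeg arrays, whose same-numbered deviations correlated at 0.032, 0.016 and 0.058. Same-numbered arrays of the sorted ESC groups did deviate together (0.24 to 0.56, and 0.20 to 0.37 for replicate 1 minus 2 within chip 1). A replicate block over these ESCs alone, with the chip and chosen after seeing the data, gave 1308 higher and 969 lower genes, 2277 of them called as before, and of the named genes ended the call of Fos. A replicate block over all arrays in place of the chip gave 1415 higher and 1109 lower genes, and a replicate block with the chip gave 1450 and 1192. Signal over background limits the genes near the detection floor, for which only bounds could be given, and 1 line on each side limits every comparison.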

Other observations

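Lists outside the pathways above held smaller changes, counted over members with a probe and no filter. Of 38 ephrin and axon guidance genes 6 were higher and 1 lower in EpiSCs. Efnb1, an X-linked membrane-bound ephrin, measured 7.49, 7.21 and 7.25 in EpiSCs, against 5.61, 4.57 and 6.21 in EsrrbNeg cells (1.69 ± 0.32, limma adjusted p = 0.000841), or 2.42 without EsrrbNeg replicate 3. Nrp1, a receptor for semaphorins and VEGF, was detected on all EpiSC arrays (5.48, 5.02 and 5.60) and on no EsrrbNeg array (4.21, 4.17 and 4.52).

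Of 29 Polycomb genes 3 were higher and 2 lower. Phc2, a subunit of the PRC1 complex, measured 8.90, 9.02 and 8.98 in EpiSCs, against 7.95, 7.84 and 8.12 in EsrrbNeg cells (0.98 ± 0.11, adjusted p = 2.86e-05), whereas Cbx7, the chromodomain subunit of PRC1 in naive cells, measured 7.23, 7.26 and 7.26 in EpiSCs, against 8.31, 8.38 and 8.02 in EsrrbNeg cells (-0.83 ± 0.10, adjusted p = 2.67e-05). The groups did not overlap for either gene, as was so for 3171 (EpiSCs above) and 3158 (EpiSCs below) of the 11089 genes tested. Of 14 Myc family genes 2 were higher, Mxd4, a MYC antagonist, by 1.08 and Mycl by 0.61. Mycl was not called without EpiSC replicate 1, EsrrbNeg replicate 2, or EsrrbHi replicate 2 or 3 (0.54 to 0.58). Of 27 heat shock genes 3 were higher and 1 lower, the last being Hspb1 (-0.93 ± 0.16, adjusted p = 0.000561). None of 8 genes of the 2-cell-like state was called.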
